A study of Mus musculus with 2 samples.

Results

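The genes described here are 43 antiviral effectors and nucleic acid sensors that type I interferon induces. They were chosen by name, from what is known of interferon-stimulated genes, but with earlier results of these data known. Counts set beside the shares of all genes below are thus descriptions. Of the 43 genes, 41 had a probe set that the platform annotation gives to exactly 1 gene. In all, 19935 genes had such a probe set. Ifi44 and Ifi204 had none and are not analysed here. Each of the other 41 was read by 1 probe set. The samples were dendritic cells (DCs), which capture antigens and show them to T cells, isolated by flow cytometry from the spleen of wild-type C57BL/6 mice aged 8 weeks. One sample was cultured with vehicle and the other with IL-27, a cytokine of the IL-12 family, and the label gives the duration only as "ON". RNA of each was read on 1 array, so no difference below has a replicate check, and no error or p-value is given. The number of mice or cultures behind each sample is not in the labels.

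Type I interferon binds the receptor IFNAR1-IFNAR2, and signals through the kinases JAK1 and TYK2. These activate ISGF3, a transcription factor that contains STAT2 and IRF9 and binds the interferon-stimulated response element (ISRE) in the promoters of antiviral genes. IL-27 also signals through JAK kinases to STAT factors, and STAT dimers bind another element, the gamma-activated site (GAS). The genes induced include sensors of viral RNA and DNA, enzymes that degrade or modify nucleic acids, and proteins that block viral translation, assembly or release.

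Most of these genes were dimmer with IL-27. Of the 41 measured, 38 had a lower intensity with IL-27 than with vehicle and 3 a higher one, and the median difference was -1.11 on the log2 scale (IL-27 minus vehicle), which is 2.16-fold lower. A gene was called lower or higher at a difference of at least 2-fold provided that its brighter value reached an intensity of 96.2, the median over every probe set on both arrays. By this rule 23 were lower, 1 was higher and 17 were neither. Among all named genes 7.36% were lower and 0.848% higher, and among those over the level minimum 13.2% and 1.52%. The median over all named genes was 0.04, with 9285 of the 19935 below 0. Over those past the level minimum it was -0.34, with 7895 of 11140 below 0.

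The difference between the arrays depended on level. A smooth trend of the difference against mean level had a median of -0.49 at these 41 genes, so genes of like intensity were in general lower on the IL-27 array. Relative to the trend, 33 of the 41 were lower and 8 were higher, with a median of -0.64. With the trend removed 12 genes stayed 2-fold lower and 1 stayed 2-fold higher. Of all named genes 2.98% and 1.71% were lower and higher, that is 594 and 341, all among the 11140 over the level minimum. The 12 were Herc6, Ddx58, Ifit3, Samd9l, Eif2ak2, Usp18, Ifit2, Ifi203, Oasl2, Ifih1, Parp12 and Ddx60. For Ifit2, Eif2ak2 and Ddx60 of these, the IL-27 value lay in the range of genes not expected in DCs, and a fold taken against the top of that range was under 2.

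**Figure D1:**
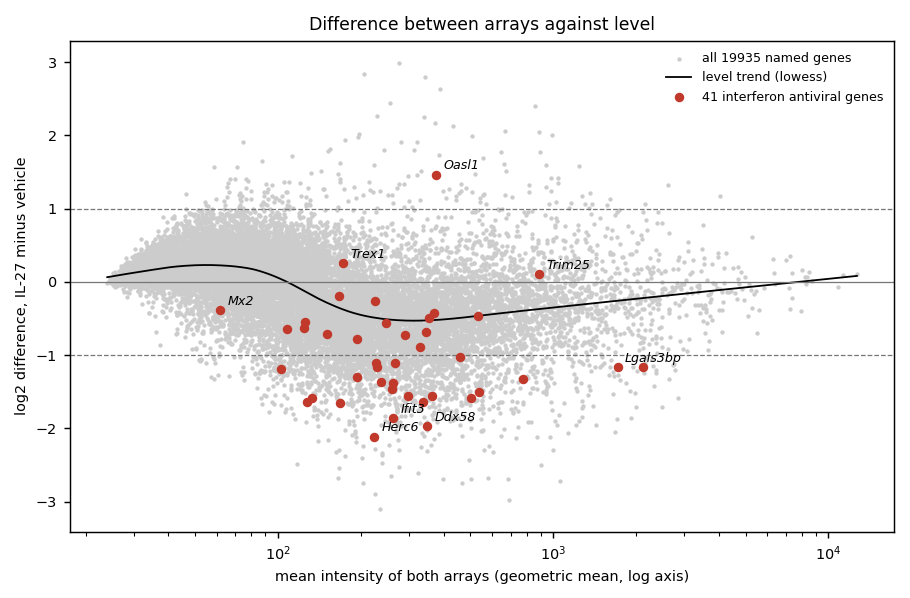
Log2 difference between the arrays (IL-27 minus vehicle, y axis) against the geometric mean intensity of both (log x axis) for 19935 named genes, with the 41 interferon antiviral genes in red, the smoothed trend as a black line and 2-fold differences as dashed lines. Of the red points 38 lie below 0 and 33 below the trend, and Oasl1 is the red point above the upper dashed line.

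Promoters of the genes with the most negative differences as deposited (Herc6, Ddx58 and Ifit3) are shown with those of the neighbouring Oasl2 and Oasl1, which differed in opposite directions. The sequences are from RefSeq, build GRCm38.p6, and run 5′ to 3′ on the gene's strand from 250 bases before to 50 after its start. They lie at chr6:57580742-57581041 (plus strand) for Herc6, chr4:40239776-40240075 (minus) for Ddx58, chr19:34583279-34583578 (plus) for Ifit3, chr5:114896684-114896983 (plus) for Oasl2 and chr5:114922990-114923289 (plus) for Oasl1. Capitals mark matches to an ISRE core, that is GAAA, any 2 bases and GAAA, on either strand.
Herc6: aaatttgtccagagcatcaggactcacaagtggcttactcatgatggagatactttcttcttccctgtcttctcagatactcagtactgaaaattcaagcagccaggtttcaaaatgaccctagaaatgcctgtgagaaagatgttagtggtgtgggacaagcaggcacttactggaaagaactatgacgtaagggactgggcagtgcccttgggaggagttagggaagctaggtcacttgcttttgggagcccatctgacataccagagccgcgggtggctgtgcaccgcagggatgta
Ddx58: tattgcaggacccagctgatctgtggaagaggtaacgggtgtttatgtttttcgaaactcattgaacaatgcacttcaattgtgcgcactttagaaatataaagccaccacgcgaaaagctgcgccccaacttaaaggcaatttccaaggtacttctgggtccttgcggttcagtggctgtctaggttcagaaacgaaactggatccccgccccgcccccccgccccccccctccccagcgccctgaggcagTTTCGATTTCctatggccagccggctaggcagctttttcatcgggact
Ifit3: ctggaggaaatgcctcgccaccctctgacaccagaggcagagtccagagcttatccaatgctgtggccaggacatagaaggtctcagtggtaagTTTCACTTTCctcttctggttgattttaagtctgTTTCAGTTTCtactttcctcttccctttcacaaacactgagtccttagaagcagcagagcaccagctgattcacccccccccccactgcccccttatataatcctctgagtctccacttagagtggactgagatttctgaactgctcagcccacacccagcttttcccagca
Oasl2: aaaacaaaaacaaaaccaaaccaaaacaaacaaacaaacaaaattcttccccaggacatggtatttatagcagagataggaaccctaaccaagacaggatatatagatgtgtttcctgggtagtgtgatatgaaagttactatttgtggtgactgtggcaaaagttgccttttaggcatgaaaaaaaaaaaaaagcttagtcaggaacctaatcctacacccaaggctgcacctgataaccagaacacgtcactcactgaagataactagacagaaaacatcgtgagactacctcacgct
Oasl1: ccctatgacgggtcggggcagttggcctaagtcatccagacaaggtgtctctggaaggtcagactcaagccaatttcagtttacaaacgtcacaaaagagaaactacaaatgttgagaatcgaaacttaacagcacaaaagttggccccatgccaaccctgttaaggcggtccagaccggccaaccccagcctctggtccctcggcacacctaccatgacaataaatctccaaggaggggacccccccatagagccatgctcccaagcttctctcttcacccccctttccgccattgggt

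The Ifit3 window held 2 matches to the ISRE core, that of Ddx58 held 1, and those of Herc6, Oasl2 and Oasl1 held none. No window of these 5 held the GAS letters, TTC and GAA with 3 bases between them, which read alike on both strands. Promoter windows were found for 32 of the 43 genes, and 14 of the 32 (43.8%) held an ISRE core in at least 1 window, against 3.99% of all 27025 genes with a window. The core was present in 8 of 16 genes called lower and in 6 of 14 called neither. GAS letters were present in 7 of the 32 genes (21.9%) and in 9.55% of all genes. They were present in 2 of 16 genes called lower and in 5 of 14 called neither. In Bst2 a GAS match overlapped an ISRE match, and in Oas1a, Bst2 and Trim21 a pair of ISRE matches overlapped each other. These matches are descriptions of sequence, and a window without a match says nothing of the factor.

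The sensors of foreign RNA were lower as a group, and 5 of 6 passed the 2-fold rule. Of all named genes over the level minimum 13.2% were lower. With the level trend removed 4 of the 6 were lower, and with values raised to the limit of genes not expected in DCs, described below, 3 were. Ddx58, which encodes the RNA helicase RIG-I, had an intensity of 689 under vehicle and 176 under IL-27, a difference of -1.97 (-1.45 with the level trend removed). Ifih1, which encodes MDA5, a sensor of long double-stranded RNA, had 621 and 211 (-1.03 with the trend removed). Dhx58, which encodes LGP2, a helicase of the same family without signalling domains, had 422 and 163. With the trend removed Dhx58 was short of the rule at -0.86. All 3 RIG-I-like helicases were thus brighter with vehicle, by 3.92-fold, 2.94-fold and 2.60-fold as deposited.

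The other sensors included values near the range of genes not expected in DCs. The 1027 olfactory receptor genes served as a measure of that range, and their 95th percentile was 77.3 (vehicle) and 129 (IL-27). Where the dimmer value of a called gene lay at or below this limit, the limit replaced that value, and the fold is written as "at least". Such a bound is of the deposited values and leaves the level trend in, so it can exceed the fold with the trend removed. Eif2ak2, which encodes the RNA-activated kinase PKR, had 225 under vehicle and 71.9 under IL-27 and was at least 1.73-fold lower. Ddx60, a helicase linked to RIG-I signalling, had 155 and 68.3 and was at least 1.20-fold lower. Zbp1, a sensor of Z-form nucleic acid, had 253 and 147 and was short of the 2-fold rule at -0.78.

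Of the IFIT genes, whose products bind viral RNA and hold back its translation, 2 of 3 were lower by the rule. Against the olfactory limit 1 was still 2-fold lower. Of all named genes over the level minimum 13.2% were lower by the rule. Ifit3 had an intensity of 501 under vehicle and 138 under IL-27, which is 3.64-fold lower. Ifit2, its next protein-coding neighbour, had 230 and 76.5 and was at least 1.77-fold lower. Ifit1 had 154 and 99.7, a difference of -0.63, with the IL-27 value inside the olfactory range. All 3 lay below the level trend, at -1.35, -1.41 and -0.51.

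The OAS family went both ways. OAS enzymes make 2′-5′-linked oligoadenylates, which activate the nuclease RNase L. Oasl2 had 510 under vehicle and 172 under IL-27 (2.96-fold lower), and Oas2 had 380 and 148 (2.57-fold lower). Oas3 (135 and 86.6) and Oas1a (178 and 156) were neither, and Oas1a was at -0.19, or 0.16 relative to the level trend. Oasl1, an OAS-like protein without enzyme activity that is known to hold back translation of Irf7, had 227 under vehicle and 626 under IL-27.

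Oasl1 was 2.76-fold higher as deposited. Its log2 difference was 1.47, or 1.98 with the level trend removed and 1.75 after quantile normalization, and 43 of the 19935 named genes had a larger positive difference. Oasl1 and Oasl2 are neighbours on chromosome 5 and related in sequence. Transcripts of close relatives can hybridise to one probe set, so single values within the OAS, IFIT and p200 families are uncertain. The Oasl1 and Oasl2 probe sets differed in direction on the same arrays, and which transcripts each of them read was not tested.

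**Figure D2:**
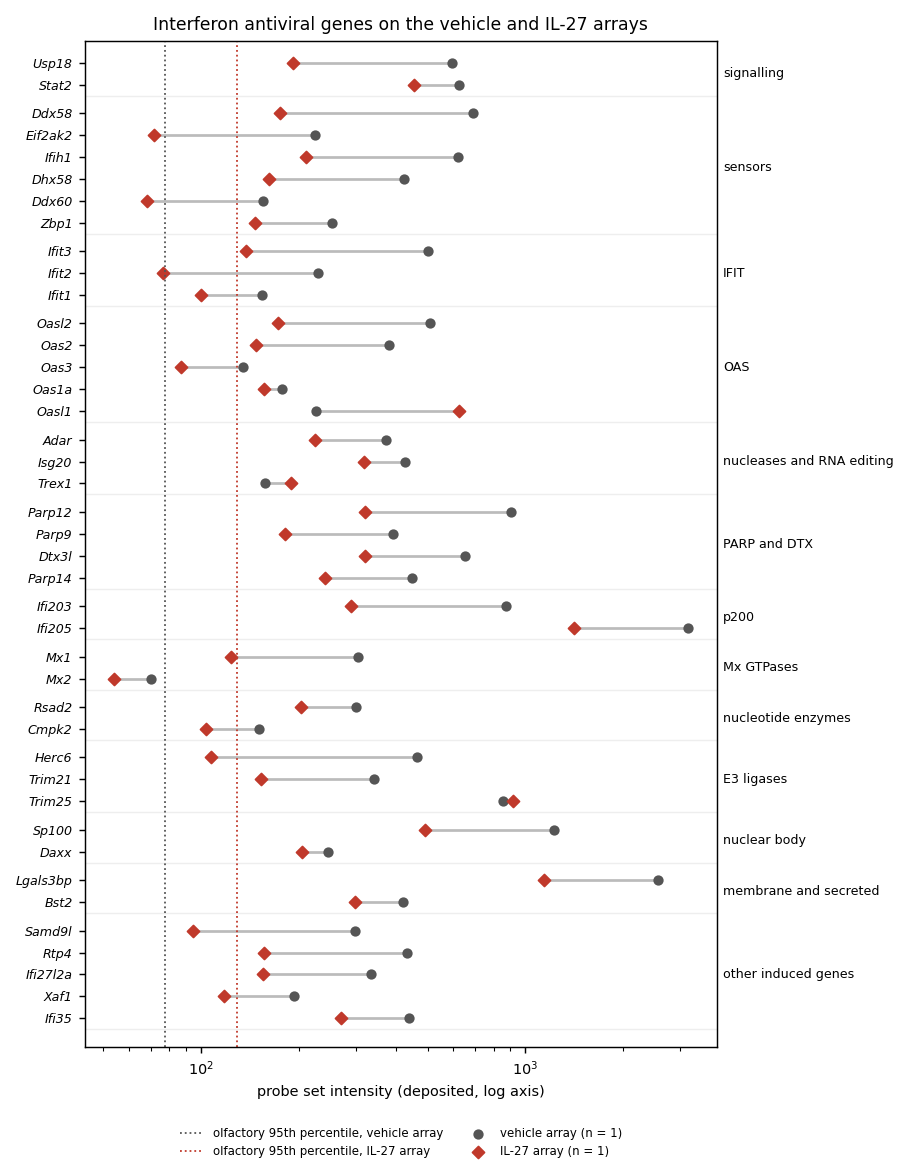
Deposited intensity (log x axis) of each of the 41 measured genes with vehicle (grey circles) and IL-27 (red diamonds), 1 array each, grouped by role, with the olfactory 95th percentile of each array as a dotted line. The red diamond lies to the left of the grey circle for 38 genes and to the right for Oasl1, Trex1 and Trim25.

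The nucleases and the RNA editing enzyme were nearer to equal than the sensors, and none of the 3 passed the 2-fold rule. Isg20, an exonuclease of single-stranded RNA, had 427 under vehicle and 319 under IL-27. Trex1, the cytosolic DNA exonuclease that limits DNA sensing, had 158 and 189, a difference of 0.26. Adar, which edits adenosine to inosine in double-stranded RNA, had 372 and 225, a difference of -0.73. Relative to the level trend these differences were 0.10, 0.63 and -0.20.

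The PARP and DTX group was lower in 3 of 4. Parp12, a mono-ADP-ribosyltransferase, had 907 under vehicle and 321 under IL-27 (2.83-fold lower). Parp9 had 391 and 182, and Dtx3l, the ubiquitin ligase that PARP9 binds, had 652 and 321. These partners, neighbours in the genome, differed by -1.11 and -1.02, just past the rule, and by -0.59 and -0.53 with the level trend removed. Parp14, next to Dtx3l, was just short of the rule at -0.89 (447 and 241).

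The p200 family encodes proteins with DNA-binding HIN domains, and Ifi203 and Ifi205 were both lower. Ifi203 had 870 under vehicle and 291 under IL-27, and Ifi205 had 3178 and 1417. The folds were 2.99 and 2.24. Ifi203 kept a 2-fold difference with the level trend removed (-1.11), and Ifi205 did not (-0.95). Of their relatives, Aim2, the inflammasome DNA sensor, had 833 and 489 and was short of the rule at -0.77. Ifi202b lay in the olfactory range on both arrays (28.4 and 29.2).

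The Mx proteins are dynamin-like GTPases that trap viral nucleocapsids, and many inbred mouse strains carry a defective Mx1. Mx1 had 304 under vehicle and 124 under IL-27 and was at least 2.35-fold lower as deposited. With the level trend removed the difference of Mx1 was -0.855, short of the 2-fold rule. Mx2 had 70.3 and 53.9, inside the olfactory range on both arrays, so no fold is given. Rsad2, which encodes viperin and makes a chain-terminating nucleotide, had 301 and 204. Its neighbour Cmpk2, a nucleotide kinase, had 151 and 104. The IL-27 value of Cmpk2 lay in the olfactory range. The differences as deposited were -0.56 and -0.55, or -0.05 and -0.42 with the level trend removed, and neither gene passed the rule.

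The genes of ubiquitin and ISG15 ligases differed among themselves more than any other role group apart from OAS. Herc6, the main ISG15 ligase of the mouse, had 464 under vehicle and 107 under IL-27. The difference was -2.11 as deposited and -1.62 with the level trend removed. The IL-27 value lay in the olfactory range, so Herc6 was at least 3.58-fold lower as deposited and has no fixed rank beside Ddx58 and Ifit3. Trim21, a cytosolic antibody receptor and ubiquitin ligase, had 343 and 153 (2.24-fold lower). Trim25, a ligase that acts in RIG-I signalling, had 856 and 920, a difference of 0.11.

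Genes of interferon signalling itself were split. Usp18, the ISG15 protease that also restrains the interferon receptor, had 596 under vehicle and 192 under IL-27, a 3.11-fold lower level. Stat2, a subunit of ISGF3, had 624 and 454, a difference of -0.46 that became 0.005 with the level trend removed. Of the nuclear body genes, Sp100 had 1229 and 492 (2.50-fold lower) and the histone chaperone gene Daxx had 246 and 205. The difference of Daxx turned from -0.26 to 0.23 with the trend removed.

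Of the membrane and secreted proteins, Lgals3bp, a secreted glycoprotein that binds galectins, had 2565 under vehicle and 1146 under IL-27 (2.24-fold lower). Bst2, which encodes tetherin and holds budding virus at the cell surface, had 420 and 299. Its difference was -0.49, and 0.03 relative to the level trend. Among the other induced genes Samd9l, a restriction factor of poxviruses, had 298 and 94.7 and was at least 2.30-fold lower. Rtp4, a receptor chaperone, had 434 and 157, and Ifi27l2a had 335 and 155, both lower by the rule. Xaf1, an antagonist of the apoptosis inhibitor XIAP (194 and 118), and Ifi35 (437 and 271) were neither.

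The size of the difference varied widely within the list, and 7 of the 23 lower genes lay within 0.2 of the 2-fold limit. These were Ddx60, Parp9, Dtx3l, Ifi205, Trim21, Lgals3bp and Ifi27l2a. Just outside it was Parp14. For 6 of the 23 the fold was a bound, and for 3 of these, Ifit2, Eif2ak2 and Ddx60, the bound was under 2-fold, which leaves 20 lower. By that measure 5.67% of all named genes were lower and 0.637% higher, that is 1131 and 127, all among the 11140 over the level minimum. The 17 genes called neither ranged from -0.89 to 0.26, and 15 of them were below 0.

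**Figure D3:**
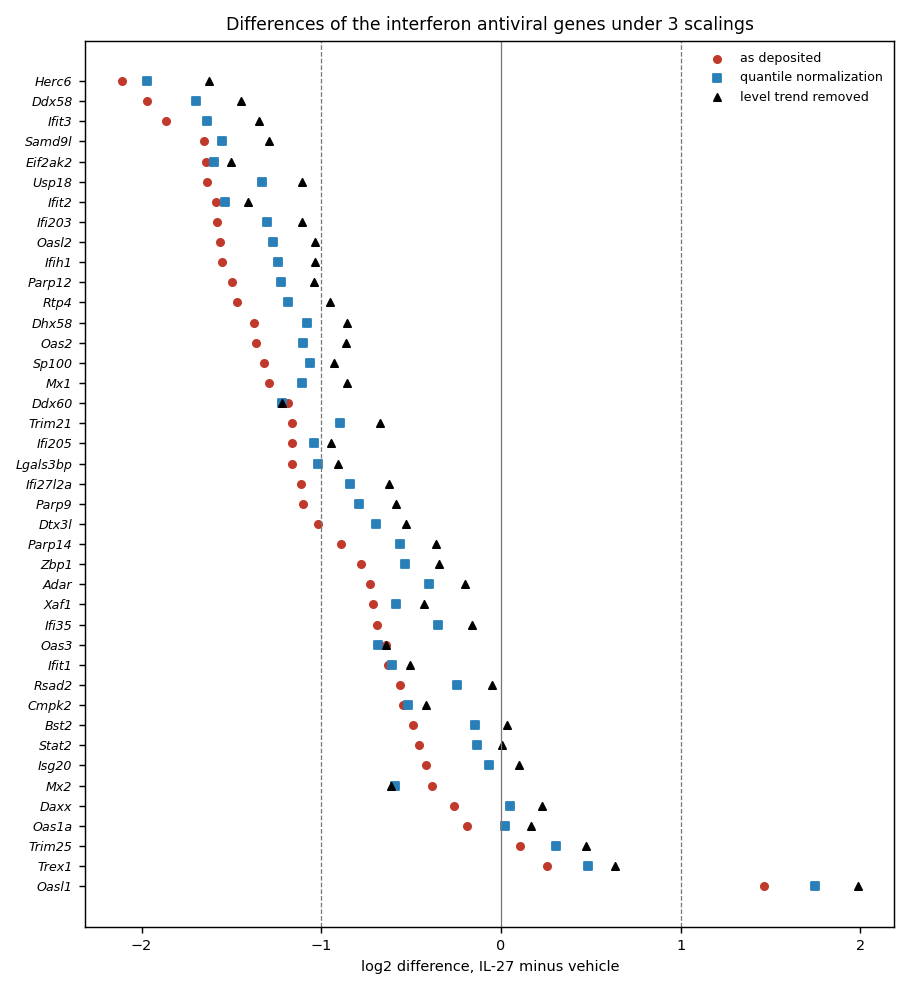
Log2 difference (IL-27 minus vehicle, x axis) of the 41 genes, sorted, as deposited (red circles), after quantile normalization (blue squares) and with the level trend removed (black triangles), with 2-fold differences as dashed lines. The median moves from -1.11 to -0.84 and -0.64, and Oasl1 lies beyond the right dashed line under all 3.

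The scaling changed how many genes passed the rule but not which side most of them lay on. After quantile normalization 19 genes were lower and 1 higher, where 4.55% and 1.18% of all named genes were, those under the level minimum included. The 4 genes no longer past the rule were Trim21, Ifi27l2a, Parp9 and Dtx3l. Among the 23 lower genes the difference stayed negative under both scalings. The signs that turned with the level trend removed were those of Stat2, Isg20, Oas1a, Daxx and Bst2, none of which had passed the rule.

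Other genes of interferon production and signalling went both ways. Of 54 genes listed, 44 were measured, and 5 were lower, 2 higher and 37 neither, with a median difference of 0.04. Of the 44, 17 lay in the olfactory range on both arrays and 26 were over the level minimum. The 5 lower genes were thus 5 of 26, where 13.2% of all named genes over the minimum were lower. All measured adaptors (5), transcription factors (3), kinases (2) and ISG15 enzymes (2) were below 0 as deposited. So were 7895 of the 11140 named genes over the level minimum. Irf9 and Tbk1 were above 0 with quantile normalization (0.16 and 0.21) and with the level trend removed (0.31 and 0.39). The ligands (14 of 14) were all above 0 as deposited, with a median of 0.38. Of the 1027 olfactory receptor genes 1016 were above 0 too, with a median of 0.46. Ifna4, Ifna9, Ifna12 and Ifna16, in the olfactory range on both arrays, were not above 0 with the trend removed. The interferon genes themselves were mostly there, with 11 of 14 ligands inside the range on both arrays, Ifnb1 among them (41.8 and 51.8). Outside it were Ifnz (193 under vehicle and 533 under IL-27), Ifna2 (87.6 and 183) and Ifna5 (222 and 369). Ifnz and Ifna2 were 2.76-fold and 2.08-fold higher, and Ifna genes are near-identical, so these are uncertain individually.

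The receptor chains were not past the rule, with Ifnar1 at 644 and 798 and Ifnar2 at 1818 and 1338. Tyk2, a kinase bound to IFNAR1, was 2.16-fold lower, and Jak1 differed by -0.41. Irf7, the factor that amplifies interferon production, had 880 under vehicle and 329 under IL-27 (2.67-fold lower), whereas Irf9, a subunit of ISGF3, had 694 and 641. Tmem173 (Sting1 in the annotation), the adaptor of cytosolic DNA sensing, was 2.37-fold lower, at 894 and 377. Ube2l6, the conjugating enzyme of ISG15, had 425 and 158, and Pyhin1 (Ifi209 in the annotation), of the p200 family, had 890 and 338. None of these 5 lower genes kept a 2-fold difference with the level trend removed.

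The IFITM genes, whose products block entry of viruses at membranes, split in direction. Ifitm1 had 400 under vehicle and 719 under IL-27, and Ifitm2 had 1876 and 3285. Ifitm1 had 2 probe sets and Ifitm2 had 3, and these values are of the one with the highest mean log2. Ifitm3 had 2704 and 1721. The differences of 0.84, 0.81 and -0.65 did not pass the rule. With the level trend removed Ifitm1 (1.31) and Ifitm2 (1.001) passed it, and Ifitm3 stayed short at -0.44. Of the inhibitors of JAK-STAT signalling, Socs1 and Socs3 differed by 0.04 and -0.05.

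**Figure D4:**
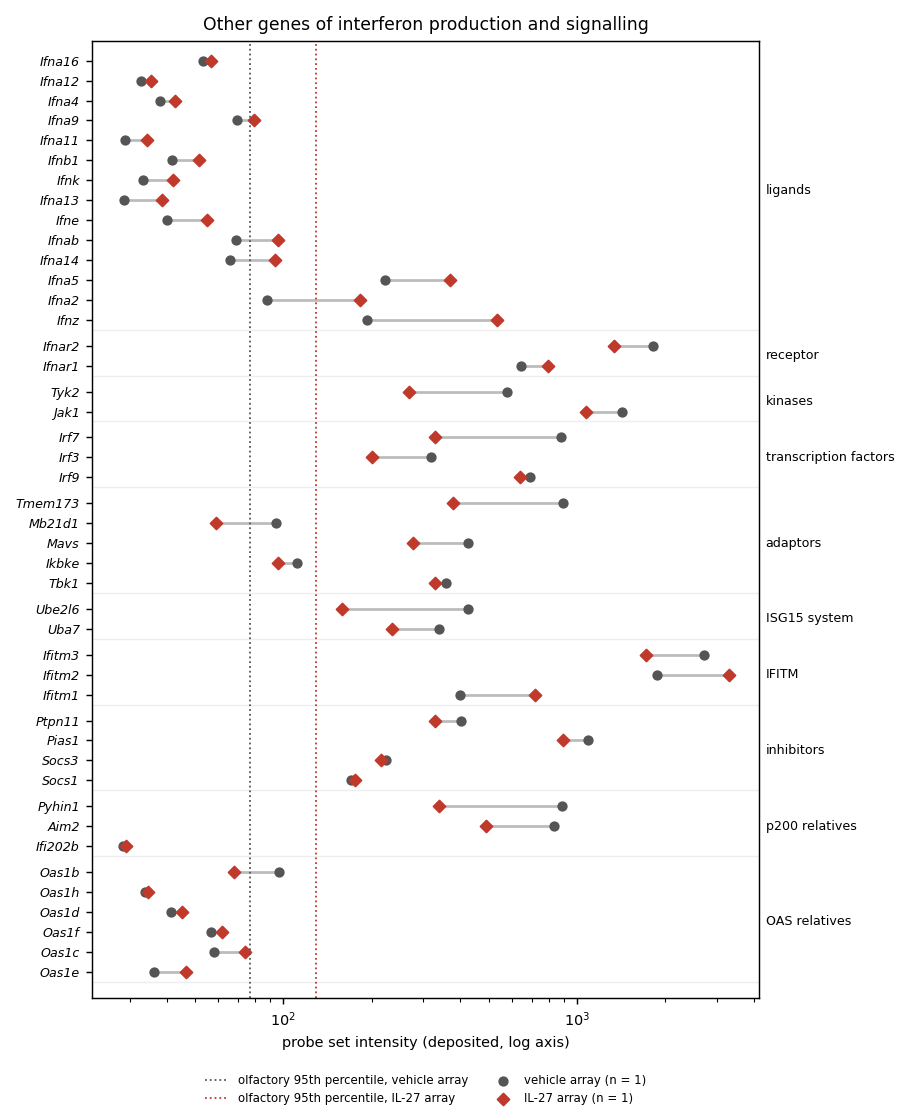
Deposited intensity (log x axis) of 44 further genes of interferon production and signalling with vehicle (grey circles) and IL-27 (red diamonds), 1 array each, by role, with the olfactory 95th percentile of each array dotted. Of the ligands 11 of 14 lie in the olfactory range on both arrays, and Irf7, Tmem173, Tyk2, Ube2l6 and Pyhin1 are the genes 2-fold lower.

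The cell type markers went different ways, and those of macrophages and monocytes were lower along with these genes. The 13 dendritic cell markers were all above the olfactory limit on both arrays, with Cd74 at 8134 and 8544 and the class II chain H2-Aa at 7080 and 7697, and 3 of them (Xcr1, Sirpa and Flt3) were lower by the rule. Of these 13, 10 were below 0 as deposited, with a median of -0.59 (-0.25 with the level trend removed), and Itgax, which encodes CD11c, differed by -0.88. Among macrophage and monocyte markers, 13 were measured and 10 passed the rule downward, none upward. Of all named genes over the level minimum 13.2% were lower. The median of these markers was -1.58 and their summed intensity 32190 under vehicle and 11900 under IL-27. With the level trend removed their median was -1.39 and 10 were lower. For the 41 interferon antiviral genes the median was then -0.64 and 12 were lower. Ccr2 was the marker of this list inside the olfactory range on both arrays. The 41 interferon antiviral genes summed to 21940 and 11090. In RNA of a whole sample, fewer cells of a type and less RNA per cell cannot be told apart, and the part of the macrophage markers in these differences was not tested.

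Plasmacytoid DC markers, which include Bst2, numbered 5, of which none passed the rule, with a summed intensity of 1511 and 1018. Of 4 measured B cell markers 1 was lower (sums 1372 and 879) and of 5 NK cell markers 2 were (1021 and 597). These 2 were Klrk1 and Klrd1, whereas Ncr1 and Klrb1c lay in the olfactory range on both arrays and Prf1 differed by 0.25. T cell markers (sums 169 and 204) and neutrophil markers (274 and 399) had none past the rule. Of these, Cd3d, Cd3g, S100a8, Ly6g and Ngp lay in the olfactory range on both arrays. The part of these cell types in the results was not tested.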

How the data were processed

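Intensities of 28815 probe sets on 2 arrays, as deposited, were used; how the arrays were background-corrected, summarized and normalized is not given in the sources used. Per the labels, material was labelled with biotin using Affymetrix's WT Terminal Labeling Kit. No pseudocount was needed for log2, as every value was positive. Median intensities were 92.4 (vehicle) and 98.9 (IL-27), and precision is limited by the number of arrays. GEO's platform annotation gave 1 gene to 21780 probe sets, several to 1605 (not named) and none to 5430. Of 19935 genes, 998 had several probe sets and were represented by the one with the highest mean log2.

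Differences were IL-27 minus vehicle, with no test. The level trend was a lowess fit (span 0.3, statsmodels 0.14.6) over all named genes. The calling was run on simulated data with planted differences larger than that of any gene described here. This checks the calculation only and cannot tell how often calls at these sizes are false. All 41 measured genes were named by role, and the genes, lists and limits were chosen with earlier results of these data known. Alternatives were quantile normalization, median centring, trend removal, a 1.5-fold rule, other level filters, an offset of 16, the mean of probe sets and the olfactory limit.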

Additional observations from a re-analysis of the deposited data

How the results depend on the processing

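Each group had 1 array, so no result could be recomputed without an array. No paired analysis was possible because each group held 1 sample. For the interferon antiviral genes, quantile normalization moved the median from -1.11 to -0.84 and its distance from the median of all genes from -1.15 to -0.81. Removing the level trend moved both to -0.64 and the number lower from 23 to 12. Raising the dimmer value to the olfactory limit moved both to -0.89. Of the 41 single differences, none changed sign after being called, and the calls that were lost numbered 11 with the trend removed, 4 with quantile normalization, 3 with the olfactory limit, 3 with the 75th percentile level filter and 1 with the offset of 16. A 1.5-fold rule added 7. Median centring, no level filter and the mean of probe sets changed no call. The stricter level filter moved the distance from all genes to -0.63, computed over the genes that pass it.

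Over all named genes, 1468 were lower and 169 higher as deposited, 907 lower with quantile normalization, 594 lower and 341 higher with the trend removed, 3753 and 653 with the 1.5-fold rule, and 101 higher with the stricter level filter. For the other pathway genes, 5 lower and 2 higher became 3 and 4 with quantile normalization, 0 and 5 with the trend removed, and 9 and 5 with the 1.5-fold rule. With median centring, the offset or the stricter level filter 1 was higher, and that filter gave a median of -0.44.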

Other observations

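Relatives of these genes outside the list, taken by gene symbol, varied in direction. For comparison, 7.36% of all named genes were lower, and 13.2% of those over the level minimum. Of 56 other Trim genes, 32 of them bright enough for the rule, 7 were lower and 0 higher, and 6 were still 2-fold lower against the olfactory limit. Trim30a, which restrains NF-kB signalling, had an intensity of 2025 under vehicle and 781 under IL-27, Trim30d had 477 and 160, and Trim12a had 836 and 261. Among 7 Schlafen genes, a family linked to lymphocyte quiescence and to viral restriction, 3 were lower and 0 higher, and against the olfactory limit 1 was still 2-fold lower. Slfn5 had 720 and 152, a difference of -2.25 (-1.72 with the level trend removed), and the IL-27 values of the other two, Slfn8 (252 and 93.9) and Slfn9 (157 and 58.3), lay in the olfactory range. Slfn2 had 580 and 1089, a difference of 0.91, or 1.30 with the level trend removed.

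Of 8 other Parp genes 1 was lower, Parp1, the DNA repair enzyme, at 400.3 and 168.9. Of 48 other Ddx and Dhx helicase genes 2 were lower, Dhx40 (558 and 168) and Dhx57 (624 and 291), with 44 of the 48 over the level minimum. The family's median was -0.46 over all 48, those under the minimum included, against -0.34 for all named genes over that minimum. With the level trend removed these medians were -0.11 and -0.003. Genes past the rule are named here after their values were seen.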
